A study of Rattus norvegicus with 11 samples.

Results

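The 10 genes described here encode parts of the T cell receptor complex and molecules that work with it on T cells, and they were found by gene name in both the count table and the FPKM table. They are Cd3d, Cd3e and Cd3g, the coreceptor genes Cd8a, Cd8b and Cd4, the surface receptors Cd2 and Cd5, the kinase Lck and the effector Prf1, which makes 10 of the 30443 genes in the tables. RNA-seq of spinal cord from female Sprague-Dawley rats, labelled 12 to 14 weeks old, was analysed after a contusion at the ninth thoracic vertebra that the authors call moderate (spinal cord injury, SCI). There were 3 libraries of 1M, 3 of 3M and 2 of 6M after SCI, named by months since surgery, and 3 of control. Control rats had the laminectomy without the contusion and were collected at 6 months, so at 1M and 3M the time since surgery also differs from control. Rats with SCI were perfused before the cord was taken at the injury centre. For control rats the authors state collection at the matching level and do not state perfusion. Each library holds a pool of 3 rats, and the third 6M library, which the authors excluded, was not analysed here.

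The T cell receptor recognises peptide held by MHC molecules, and the CD3 chains that surround it carry the ITAM motifs that pass the signal into the cell. CD8 binds MHC class I and CD4 binds MHC class II, and both bring the kinase Lck to the receptor, where it phosphorylates those motifs. T cells enter the injured cord and can stay there, but the coreceptors do not mark T cells alone in the rat. Rat monocytes, macrophages and microglia can carry CD4, rat natural killer (NK) cells carry CD8 alpha, and CD8 has been found on some rat macrophages.

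In the RefSeq annotation (GRCr8) the 3 CD3 genes lie side by side on chromosome 8 in the order Cd3g, Cd3d, Cd3e, and on chromosome 4 a single pseudogene lies between Cd8b and Cd8a. Cd4 is also on chromosome 4, next to Lag3. Cd8b and Lck each overlap 1 uncharacterized locus there, whose reads cannot be told apart from theirs because the strand setting of the counting is not given in the sources used here.

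The promoter windows of a CD3 gene, of Cd2 and of Cd8a are shown because Cd3e and Cd2 had their highest mean at 3M and Cd8a at 1M. Each window runs from 250 bases before to 50 bases after the start site, 5′ to 3′ on the strand of the gene, from RefSeq on GRCr8. The Cd3e window is chr8:54211721-54212020 on the minus strand, the Cd2 window chr2:191412610-191412909 on the minus strand and the Cd8a window chr4:104923866-104924165 on the plus strand. Capitals mark the RUNX letters, TGTGGT or, read from the other strand, ACCACA. They also mark the ETS letters, AGGAAG or, read from the other strand, CTTCCT. Matches of the motifs do not overlap each other in these windows.
Cd3e: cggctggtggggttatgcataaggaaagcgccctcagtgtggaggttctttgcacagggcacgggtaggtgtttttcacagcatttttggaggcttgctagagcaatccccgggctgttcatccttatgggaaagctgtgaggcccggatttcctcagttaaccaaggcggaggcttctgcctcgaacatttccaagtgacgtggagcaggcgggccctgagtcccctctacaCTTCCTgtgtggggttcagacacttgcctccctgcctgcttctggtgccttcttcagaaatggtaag
Cd2: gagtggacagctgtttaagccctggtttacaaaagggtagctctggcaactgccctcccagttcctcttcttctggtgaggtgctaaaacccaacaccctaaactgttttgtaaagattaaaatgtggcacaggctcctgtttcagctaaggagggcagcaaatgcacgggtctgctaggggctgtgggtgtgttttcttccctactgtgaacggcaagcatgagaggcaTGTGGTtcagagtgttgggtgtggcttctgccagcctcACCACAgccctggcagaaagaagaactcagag
Cd8a: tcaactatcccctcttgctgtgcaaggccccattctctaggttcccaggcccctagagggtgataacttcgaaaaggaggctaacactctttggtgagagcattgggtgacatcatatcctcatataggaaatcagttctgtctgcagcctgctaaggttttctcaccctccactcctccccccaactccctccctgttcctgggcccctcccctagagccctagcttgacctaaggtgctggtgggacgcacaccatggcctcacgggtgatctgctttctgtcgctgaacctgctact

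The Cd3e window held 1 ETS match, 17 bases before the start site. In the Cd2 window 2 RUNX matches lay 20 bases before and 18 bases after the start site, and in the Cd8a window neither motif was found. RefSeq gave 9 windows for 8 of the 10 genes, with 2 for Lck and none for Cd4 or Cd8b. Of these 9 windows, 3 held RUNX letters and 7 held ETS letters, against 17.3% and 34.5% of the 33469 windows of all rat genes. A match is a stretch of letters and not a binding site.

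Library totals ran from 10057646 to 49986531 counts and were lowest in control, so these low genes were measured with less precision in control. No processing batch held both SCI and control libraries, so that for every comparison with control the effects of batch and of injury cannot be told apart, and the 3 comparisons with control share their control libraries. Myelin, neuron and astrocyte markers were present in every library by their counts. The gene-wise test was edgeR's quasi-likelihood test on counts, adjusted over all 14867 genes whose FPKM passed 1 in at least 1 library, and a gene rose or fell where its adjusted p was under 0.05. Levels are given in CPM (counts scaled to library size by TMM) or in FPKM, which also divides by transcript length.

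Cd8a and Cd8b, the alpha and beta chains of CD8, were highest at 1M and had larger log2 fold changes against control than the other 8 genes at 1M and 3M. At 6M this held for Cd8b, while Cd8a had 2.27 and Cd4 2.30. Cd8a had 12.3, 9.67 and 9.08 CPM at 1M, 5.64, 5.42 and 12.1 CPM at 3M, 2.97 and 3.58 CPM at 6M, and 0.467, 0.237 and 1.08 CPM in control. Every SCI library lay above every control library, the 6M libraries lay below all others after SCI, and 3M replicate 3 lay within the range of 1M. The log2 fold change of Cd8a against control was 3.93 ± 0.46 (SE) at 1M (edgeR adjusted p = 9.48e-05), 3.50 ± 0.47 at 3M (adjusted p = 1.23e-04) and 2.27 ± 0.51 at 6M (adjusted p = 0.00399).

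Cd8b had 11.4, 7.68 and 6.26 CPM at 1M, 5.27, 4.53 and 7.30 CPM at 3M, 2.30 and 2.22 CPM at 6M, and 0.187, 0 and 0.171 CPM in control. The order of the groups was that of Cd8a, again with overlap between 1M and 3M only. The control values rest on 2, 0 and 3 counts, against 52 to 566 counts after SCI. The log2 fold change was 5.92 ± 0.48 at 1M (edgeR adjusted p = 9.28e-06), 5.34 ± 0.49 at 3M (adjusted p = 1.70e-05) and 4.01 ± 0.56 at 6M (adjusted p = 2.70e-04), and its size depends on those few control counts. In bulk tissue more cells of a type and more RNA per cell cannot be told apart, here and in all results that follow.

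Between the times, both CD8 chains fell at 6M relative to 1M, which 3.95% of all tested genes did. The log2 difference, 6M minus 1M, was -1.91 ± 0.34 for Cd8b (edgeR adjusted p = 0.00732) and -1.66 ± 0.41 for Cd8a (adjusted p = 0.0297). The Cd8a call did not hold when 1M replicate 1 or 2 or either 6M library was left out (adjusted p = 0.0727, 0.0694, 0.102 and 0.155), and the Cd8b call was lost without 6M replicate 2 (adjusted p = 0.0761). No tested member rose at 6M relative to 1M by edgeR, none at an unadjusted p under 0.05 (6.12% of tested genes rose, and 3.28% in the unfiltered fit described below for Cd5 and Prf1). By CPM 3 of the 10 genes lay higher at 6M than at 1M without overlap and 2 lower (21.8% and 18.7% of tested genes). At 3M relative to 1M the values were -0.58 ± 0.27 for Cd8b (edgeR adjusted p = 0.232) and -0.43 ± 0.34 for Cd8a (adjusted p = 0.528).

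Cd4, the most abundant of the 10 genes per transcript length, rose at all 3 times by about the same amount. Its level was 26.6, 28.7 and 31.3 FPKM at 1M, 24.7, 27.5 and 24.3 FPKM at 3M, 21.1 and 30.7 FPKM at 6M, and 5.62, 1.61 and 4.35 FPKM in control. In CPM it was 91.8 ± 9.82 at 1M, 75.8 ± 5.57 at 3M, 82.2 ± 19.3 at 6M and 16.5 ± 7.07 in control (SD, n = 3, 3, 2 and 3), with every SCI library above every control library. The log2 fold change was 2.46 ± 0.26 at 1M, 2.18 ± 0.26 at 3M and 2.30 ± 0.28 at 6M (edgeR adjusted p = 4.99e-05, 6.20e-05 and 1.32e-04). The 3 differences between times lay between -0.28 and 0.12 and none passed the test.

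Macrophage and microglia genes were also higher after SCI. Of 17 listed genes 16 rose at each time, Cd163 being the exception, where 25.5%, 29.7% and 26.8% of all tested genes rose at 1M, 3M and 6M. The summed level of the 17 genes was 3810 to 5170 CPM at 1M, 3125 to 3223 CPM at 3M, 2664 to 3231 CPM at 6M and 1021 to 1240 CPM in control. Cd68, a lysosomal protein of phagocytes, had log2 fold changes of 5.37 ± 0.22, 4.52 ± 0.21 and 3.25 ± 0.22 at 1M, 3M and 6M. Adgre1, the F4/80 receptor of macrophages, had values of 2.51 ± 0.16, 2.34 ± 0.16 and 2.50 ± 0.17 at the same times. Their part in the Cd4 and CD8 results was not tested.

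The CD3 chains, which are the markers of T cells proper in this list, were low in every library and showed another order, with the highest mean at 3M. Cd3e had 1.07, 0.628 and 0.204 CPM at 1M, 1.19, 0.848 and 3.19 CPM at 3M, 0.886 and 1.29 CPM at 6M, and 0.467, 0.237 and 0.456 CPM in control. All 3M and 6M libraries lay above the controls and 1M overlapped them. Cd3e rose at 3M, with a log2 fold change of 2.08 ± 0.71 (edgeR adjusted p = 0.0267), against 0.74 ± 0.76 at 1M (adjusted p = 0.430) and 1.43 ± 0.79 at 6M (adjusted p = 0.148).

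Cd3d had 0.344, 0.221 and 0.0409 CPM at 1M, 0.593, 0.553 and 1.43 CPM at 3M, 0.266 and 0.795 CPM at 6M, and 0.0933, 0.356 and 0.285 CPM in control. Only its 3M libraries stood clear of control, and the log2 fold change there was 1.77 ± 0.76 (edgeR adjusted p = 0.0636). Cd3g had 0.688, 0.886 and 0.613 CPM at 1M, 1.08, 0.664 and 2.69 CPM at 3M, 0.753 and 1.39 CPM at 6M, and 0.467, 0.119 and 1.03 CPM in control. Its groups overlapped at every time, with a log2 fold change of 1.24 ± 0.64 at 3M (edgeR adjusted p = 0.116), and neither gene passed the test at 1M or 6M.

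Cd2, an adhesion receptor whose ligand in rodents is CD48, had values that lay close together in every group but 3M. It had 0.728, 0.701 and 0.695 CPM at 1M, 1.71, 1.33 and 2.89 CPM at 3M, 1.06 and 1.26 CPM at 6M, and 0.467, 0.474 and 0.456 CPM in control. The control values rest on 5, 4 and 8 counts, and those at 1M on 17 to 36, so their closeness does not measure precision. No 2 groups overlapped, and their order was 3M, 6M, 1M, control from high to low. Cd2 rose at 3M (log2 fold change 2.07 ± 0.37, edgeR adjusted p = 6.97e-04) and at 6M (1.32 ± 0.41, adjusted p = 0.0191), while at 1M the value was 0.61 ± 0.39 (adjusted p = 0.210). The 6M call was lost without control replicate 3 or 6M replicate 2 (adjusted p = 0.0586 and 0.0950).

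Cd2 was also the one tested member that rose at 3M relative to 1M, which 5.02% of all tested genes did, with a log2 difference of 1.46 ± 0.30 (edgeR adjusted p = 0.0171). Within the single processing batch that held libraries of both times the difference was 1.45 (adjusted p = 0.0466). No tested member fell at 3M relative to 1M by edgeR, none at an unadjusted p under 0.05 (3.3% of all tested genes fell), and 4 of the 10 genes lay higher and 1 lower without overlap (16.4% and 17.9% of tested genes). The Cd2 call was lost without 1M replicate 1 or 2 or 3M replicate 1 or 3 (adjusted p from 0.0527 to 0.0623).

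Lck, the kinase of the coreceptors, had 2.31, 1.70 and 2.33 CPM at 1M, 4.19, 2.62 and 7.17 CPM at 3M, 2.35 and 3.68 CPM at 6M, and 1.96, 2.37 and 2.45 CPM in control. The 3M libraries lay above all controls, and the 1M and 6M libraries overlapped them. Lck rose at 3M (log2 fold change 1.03 ± 0.36, edgeR adjusted p = 0.0301), against -0.10 ± 0.37 at 1M (adjusted p = 0.839) and 0.42 ± 0.40 at 6M (adjusted p = 0.404).

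Cd5, an inhibitory modulator of receptor signalling, and Prf1, the pore-forming perforin of cytotoxic T and NK cells, never passed 1 FPKM, with highest values of 0.996 and 0.379 FPKM. They were tested in a fit without that filter, over 24791 genes. Cd5 had 0.303, 0.295 and 0.327 CPM at 1M, 1.08, 0.848 and 3.06 CPM at 3M, 0.531 and 0.729 CPM at 6M, and 0.373, 0.356 and 0.627 CPM in control, so that its 1M libraries lay below and its 3M libraries above all controls. In the unfiltered edgeR fit it rose at 3M by 1.89 ± 0.52 on the log2 scale (adjusted p = 0.00859), and 3M minus 1M was 2.39 ± 0.47 (adjusted p = 0.0115), a rise that 2.71% of genes showed in that fit. The call of 3M minus 1M was lost without 1M replicate 1 (adjusted p = 0.0542) and without 3M replicate 3, where Cd5 had 1.61 (adjusted p = 0.0644). Prf1 had 0.344, 0.443 and 0.245 CPM at 1M, 0.816, 0.442 and 1.43 CPM at 3M, 0.310 and 0.497 CPM at 6M, and 0.560, 0 and 0.342 CPM in control. It overlapped control at every time, with a log2 fold change of 1.56 ± 0.63 at 3M (edgeR adjusted p = 0.0600).

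**Figure D1:**
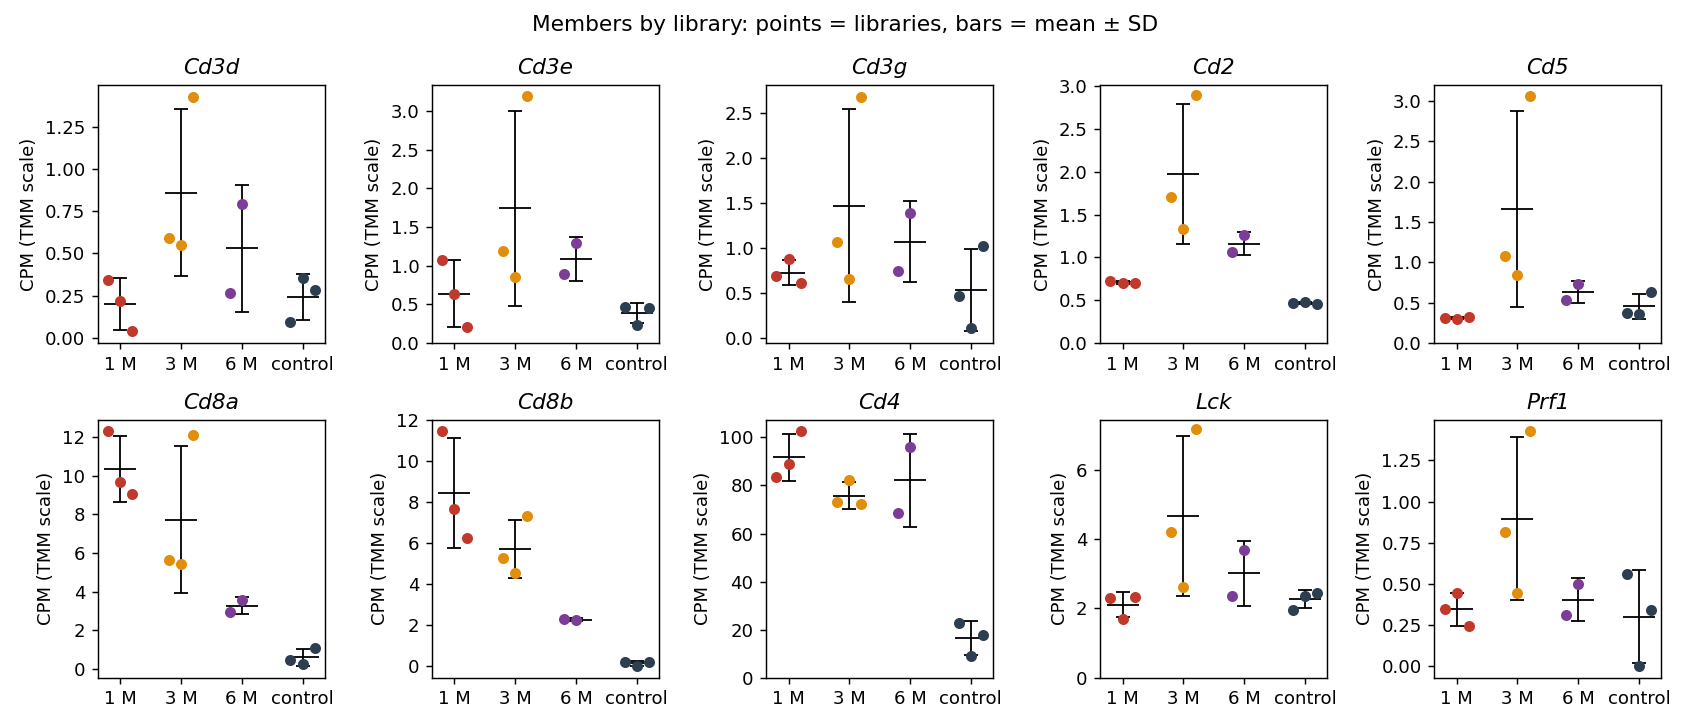
Level of each of the 10 genes in CPM (y axis, linear) in the libraries of 1M, 3M, 6M and control (x axis), with points for libraries and bars for the mean ± SD. Cd8a and Cd8b are highest at 1M, Cd4 stays between 68.6 and 103 CPM after SCI, and the other 7 genes have their highest point in 3M replicate 3.

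Over the 8 tested members, 3 rose at 1M, where 25.5% of all tested genes rose, 6 rose at 3M, where 29.7% rose, and 4 rose at 6M, where 26.8% rose. None fell at 1M, 3M or 6M by edgeR or DESeq2, and 0 were lower at an unadjusted p under 0.05 in edgeR, while 31.5%, 31.4% and 27.2% of all tested genes fell. The median log2 fold change of the tested members was 0.67 at 1M, 2.08 at 3M and 1.38 at 6M, against -0.05, 0.00 and 0.00 over all tested genes. These counts are a description, because 6 of the 8 passed the filter through SCI libraries only, so the filter favours members that were higher after SCI. The same filter was applied to the gene lists described below, whose counts are a description too. With all 10 genes in the unfiltered fit, 3, 8 and 4 rose at 1M, 3M and 6M, where 19.9%, 23.2% and 20.2% of 24791 genes rose. By CPM, 4 of the 10 genes lay above all controls at 1M and 1 below, where 27.0% and 34.0% of tested genes did so. At 3M 8 of 10 lay above (34.6% of tested genes) and at 6M 5 of 10 (35.2%), with none below (34.7% and 34.0%). Cd8a, Cd8b, Cd4 and Cd2 lay above all controls in all 8 SCI libraries, as did 22.8% of all tested genes.

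**Figure D2:**
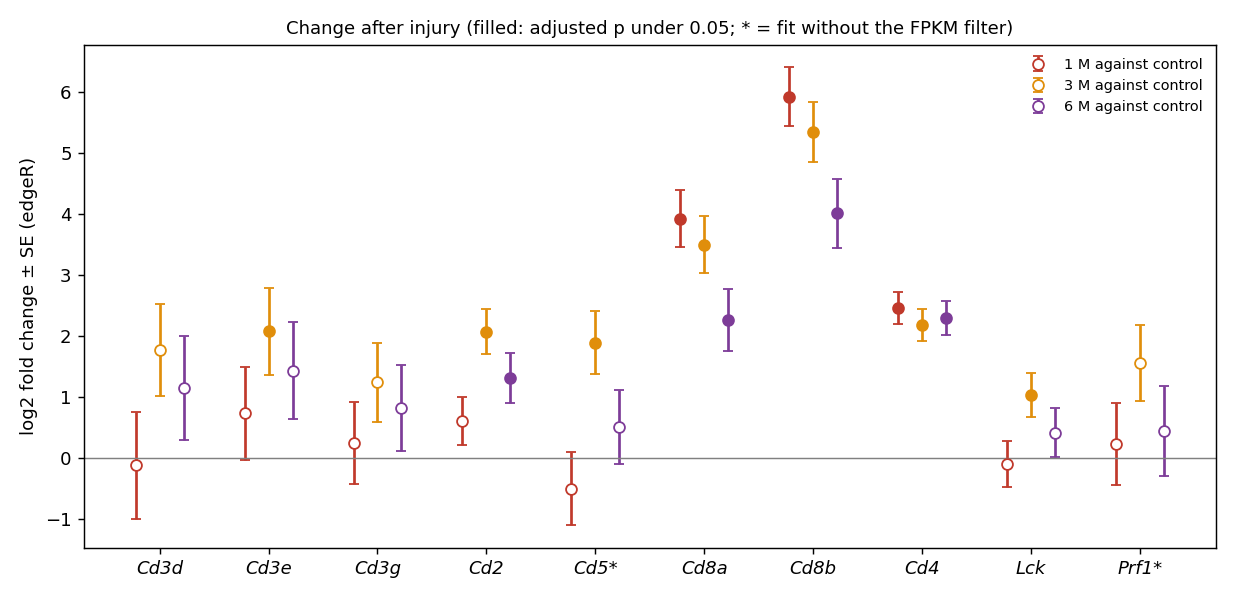
log2 fold change ± SE from edgeR (y axis) of each gene (x axis) at 1M, 3M and 6M against control, with filled points where the adjusted p was under 0.05. The values of Cd8b and Cd8a are smaller at each later time, with 4.01 and 2.27 at 6M, those of Cd4 lie between 2.18 and 2.46, and the other genes have their highest point at 3M.

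At 6M relative to 3M none of the 8 tested members passed the test in edgeR, as was so for nearly all genes, of which 0.0135% fell and 0.0202% rose. At an unadjusted p under 0.05 3 members were lower at 6M, namely Cd8b (-1.33 ± 0.34), Cd8a (-1.23 ± 0.41) and Cd2 (-0.75 ± 0.33), as were 3.71% of all tested genes. DESeq2 called Cd8b (adjusted p = 0.0207). In the unfiltered fit Cd5 had -1.38 ± 0.51 (unadjusted p = 0.0156, edgeR adjusted p = 0.865). In CPM 4 of the 10 genes lay lower at 6M without overlap, as did 13.1% of tested genes, and in the unfiltered fit 0.0282% of genes rose.

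One library weighed on the 3M results. 3M replicate 3 was the highest of the 11 libraries for Cd3d, Cd3e, Cd3g, Cd2, Cd5, Lck and Prf1, and its summed CD3 level was 7.30 CPM against 2.86 and 2.06 CPM in the other 3M libraries. It also held 8168 CPM of 6 red blood cell genes, against 1882 and 2126 CPM in the other 3M libraries, 1015 to 2450 CPM at 1M, 789 to 1920 CPM at 6M and 427 to 1459 CPM in control. Its part in the result was not tested beyond leaving the library out. Without it 4 of 8 members rose at 3M, namely Cd8a, Cd8b, Cd4 and Cd2, and Cd2 kept a log2 fold change of 1.70 (edgeR adjusted p = 0.00141). Without it Cd3e had 1.32 (adjusted p = 0.101), Lck 0.58 (adjusted p = 0.131) and Cd5 in the unfiltered fit 1.12 (adjusted p = 0.0522), and all 3 then missed the threshold. The calls of Cd3e and Lck were also lost without any single control library, with an adjusted p from 0.0510 to 0.0698 for Cd3e and from 0.0573 to 0.0774 for Lck.

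The CD8 chains had their highest mean at 1M and the CD3 chains at 3M. None of these genes passed the test at 3M relative to 1M (edgeR adjusted p from 0.0851 for Cd3d to 0.528 for Cd8a). Without 3M replicate 3, Cd3e and Cd3g had 0.11 and 0.32 at 6M relative to 3M, so their highest mean at 3M rests on that library. The counts of Cd8a were set beside the summed counts of Cd3d, Cd3e and Cd3g in each library. This ratio was chosen after the values had been seen and is given with no test. There were 5.85, 5.57 and 10.6 Cd8a counts per CD3 count at 1M, 1.97, 2.63 and 1.66 at 3M, 1.56 and 1.03 at 6M, and 0.455, 0.333 and 0.613 in control. The 4 groups did not overlap and the ratio was lower at each later time, with control lowest. 1M replicate 3 had 222 Cd8a counts beside 21 CD3 counts, so Cd8a made up 91.4% of the 2 together (95% exact Clopper-Pearson interval 87.1% to 94.6%), whereas control replicate 3 had 19 beside 31 (38.0%, interval 24.7% to 52.8%). These intervals cover counting error only.

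**Figure D3:**
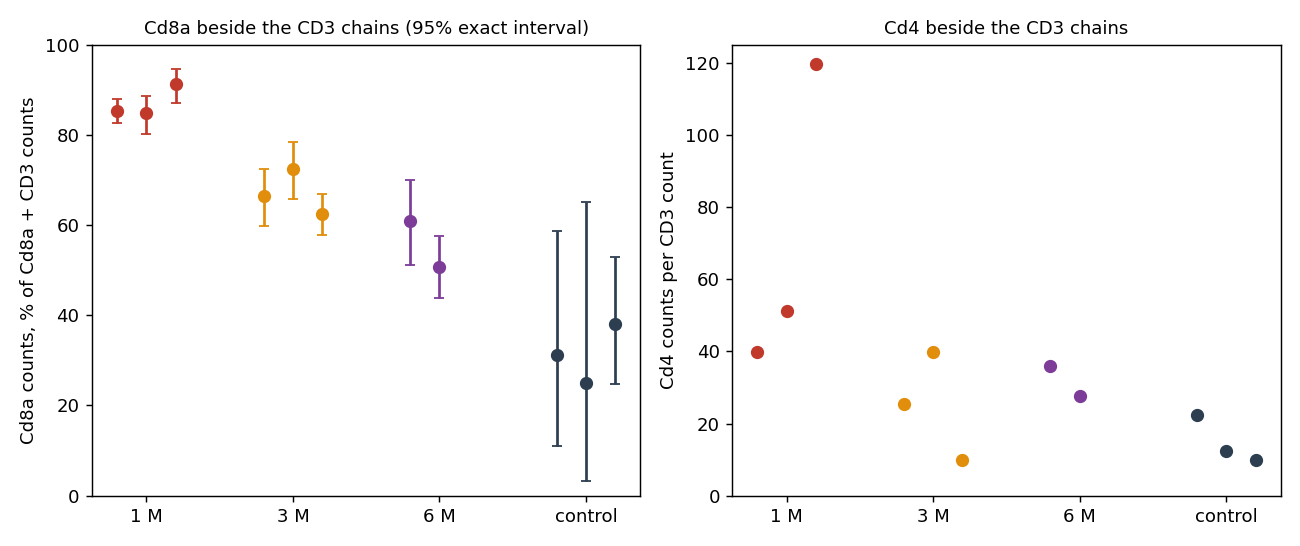
Left, Cd8a counts as a percent of the Cd8a and CD3 counts together (y axis) in each library of 1M, 3M, 6M and control (x axis), with 95% exact intervals. Right, Cd4 counts per CD3 count, which ran from 39.8 to 120 at 1M, 9.89 to 39.8 at 3M, 27.6 to 36.0 at 6M and at most 22.3 in control.

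Across the 8 SCI libraries Cd8a and Cd8b varied together (Pearson r = 0.95 of log2 CPM), and so did the CD3 chains, Cd2, Cd5, Lck and Prf1, whose 21 pairs had r from 0.84 to 0.99. Between the CD8 chains and these 7 genes the 14 values lay between -0.14 and 0.26, and those of Cd4 with the other 9 genes between -0.60 and 0.18. These correlations are a description over 8 libraries of 3 times, in which 3M replicate 3 is the highest for all 7 genes. Over all 11 libraries, and among 14488 tested genes with at least 10 counts per library on average, Cd8a was most like Tyk2 (r = 0.987), Plaur (0.985), Ifitm1 (0.983), Arhgap30 (0.979) and Lpxn (0.979). The summed CD3 counts were most like Aqp1 (r = 0.948), Gimap4 (0.946), Klf10 (0.941), AC142181.1 (0.935) and Hoxa2 (0.928). Cd4 was most like Elf2 (r = 0.992), Vps26a (0.990), ENSRNOG00000052945 (0.988), Mob1a (0.988) and C5ar2 (0.988). Over the 8 SCI libraries alone these values were 0.88 to 0.97 for the genes like Cd8a and 0.90 to 0.96 for those like the CD3 sum. For the genes like Cd4 they were lower, at 0.640 for Elf2, 0.738 for Vps26a, 0.550 for ENSRNOG00000052945, 0.880 for Mob1a and 0.641 for C5ar2.

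The log2 ratio of Cd8a to Cd4 was compared between all SCI and all control libraries as a single value per library, with 0.5 CPM added. It averaged -3.51 ± 0.72 after SCI and -3.93 ± 0.58 in control (SD, n = 8 and 3), a difference of 0.42 (exact two-sided permutation test, p = 0.40 over 165 arrangements, of which the smallest possible p is 0.00606). By time the difference from control was 0.83, 0.63 and -0.51 at 1M, 3M and 6M. Its sign over all SCI libraries changed with the added value, to -0.017 with 1 CPM.

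Genes that act downstream of the receptor were described as a list. Of 26 such genes found in the data, 17 were tested, with a median log2 fold change of 0.26, 0.90 and 0.35 at 1M, 3M and 6M. Of these, 8 rose and none fell at 1M (25.5% and 31.5% of all tested genes). At 3M 8 rose and 1 fell (29.7% and 31.4%), and at 6M 8 rose and 3 fell (26.8% and 27.2%). The 4 with the smallest adjusted p were highest at 1M. Vav1, a guanine exchange factor of blood cells, had log2 fold changes of 2.64 ± 0.13, 2.25 ± 0.13 and 1.87 ± 0.13 at 1M, 3M and 6M. Fyb and Lcp2, adaptors of blood cells, had log2 fold changes of 2.41 ± 0.13 and 1.94 ± 0.11 at 1M, and Ptprc, the CD45 phosphatase of all leukocytes, 2.88 ± 0.20. These genes are also expressed by macrophages and microglia. The genes that fell, named after their values were seen, were Nfatc2, a transcription factor activated by calcium, at 3M and 6M (-0.93 ± 0.28 and -1.17 ± 0.32), and at 6M also Csk, the kinase that restrains Lck (-0.29 ± 0.11), and the adaptor Grap2 (-0.64 ± 0.25).

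Genes of the same pathway that are more restricted to T cells were low. Cd247, the zeta chain of the complex, was named after its values were seen, and had 0.344, 0.406 and 0.450 CPM at 1M, 0.705, 0.258 and 2.43 CPM at 3M, 0.221 and 0.729 CPM at 6M, and 0.467, 0.119 and 0.627 CPM in control. As for the CD3 chains, 3M replicate 3 was highest, and the log2 fold change at 3M was 1.31 ± 0.83 (edgeR adjusted p = 0.191). Zap70, Cd28 and Icos never passed 1 FPKM. In the unfiltered fit Zap70, the kinase that binds the phosphorylated ITAMs, had a log2 fold change of 0.78 ± 0.40 at 3M (edgeR adjusted p = 0.140).

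Icos and Cd28, the costimulatory receptors of T cells, were also tested in the unfiltered fit only. Icos had 1.76, 1.85 and 1.80 CPM at 1M, 0.853, 0.774 and 1.05 CPM at 3M, 0.930 and 0.530 CPM at 6M, and 0.933, 0 and 0.513 CPM in control, and it rose at 1M (1.93 ± 0.49 in the unfiltered edgeR fit, adjusted p = 0.00671). Cd28 had 47 counts at 1M, 32 at 3M, 35 at 6M and 3 in control. Its log2 fold changes were 2.52 ± 0.71, 2.38 ± 0.73 and 3.03 ± 0.73 (unfiltered edgeR fit, adjusted p = 0.0123, 0.0165 and 0.00454). With the counts of each group pooled and scaled by TMM, the ratios to control were 5.69 (95% exact counting interval 1.83 to 28.6), 5.02 (1.57 to 25.6) and 8.11 (2.56 to 41.2). The intervals cover counting error only. Cd6, a relative of Cd5 that was named after its values were seen, rose at all 3 times without overlap of SCI and control libraries, to 14.1 ± 2.09 CPM at 1M, 19.3 ± 1.31 CPM at 3M and 17.1 ± 3.89 CPM at 6M, against 3.91 ± 0.68 CPM in control.

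Of 10 tested genes listed for cytotoxic granules and their release, 4 rose and 1 fell at 1M (25.5% and 31.5% of all tested genes). At 3M 7 rose and none fell (29.7% and 31.4%), and at 6M 7 rose and none fell (26.8% and 27.2%). Rab27a, which docks lytic granules, had log2 fold changes of 0.87 ± 0.12, 1.46 ± 0.12 and 1.29 ± 0.13 at 1M, 3M and 6M. Unc13d and Stx11, which take part in granule release, rose at all 3 times, as did Lamp1, a lysosomal membrane protein of most cells. These rising genes encode neither granzymes nor perforin. The one that fell at 1M was Gzmm, a granzyme named after its values were seen, at 2.51 ± 0.26 CPM against 6.85 ± 3.16 CPM in control. Nkg7, also named after its values were seen, passed the test against control at no time. Its log2 fold changes were -0.96 ± 0.76, 1.32 ± 0.65 and 0.45 ± 0.74 at 1M, 3M and 6M (edgeR adjusted p = 0.302, 0.0987 and 0.630). Gzmk, a granzyme of memory T cells that never passed 1 FPKM, had 0 counts in all 3 controls, and 25 counts at 1M, 26 at 3M and 36 at 6M, at least 3.03-fold, 4.08-fold and 8.35-fold higher than 3 counts over the control group. Ifng had at most 3 counts in any library and Gzma at most 6.

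NK cell genes were low too. Only Ncr3 and Klrk1 of 15 in the tables were tested. Of these, 1 rose at 1M (25.5% of all tested genes), 2 at 3M (29.7%) and 2 at 6M (26.8%). Ncr3, an activating receptor of NK cells, rose at all 3 times (1.53 ± 0.29, 1.44 ± 0.29 and 1.05 ± 0.32, edgeR adjusted p = 0.00149, 0.00166 and 0.0178). Klrk1, the NKG2D receptor of NK and CD8 T cells, rose at 3M (2.12 ± 0.51, edgeR adjusted p = 0.00470) and 6M (1.58 ± 0.56, adjusted p = 0.0358), and had 1.17 ± 0.53 at 1M (adjusted p = 0.0828). The FPKM of Klrk1 passed 1 only at 3M (0.942 to 2.52 FPKM), so it was tested through that group. At 3M it had 1.97, 1.47 and 3.69 CPM, highest in replicate 3. The fit of Klrk1 without that library is not reported here. Ncr1, the defining NK receptor, had 0 counts in control, 1 count in all of 1M, 19 counts at 3M and 10 at 6M. Klrd1, another NK marker that never passed 1 FPKM, passed the test against control at no time in the unfiltered edgeR fit. Its log2 fold changes were -0.06 ± 0.28, 0.20 ± 0.28 and -0.08 ± 0.31 at 1M, 3M and 6M (adjusted p = 0.910, 0.618 and 0.918). The deposited FPKM of Klrd1 differed from its counts. It was 0.555 to 0.595 FPKM at 1M and 0.774 to 0.926 FPKM at 3M, above the 0.125 to 0.439 FPKM of control. At 6M it was 0.374 to 0.452 FPKM and overlapped control. The summed level of the 15 genes was 8.20 to 8.96 CPM at 1M, 10.8 to 18.2 CPM at 3M, 8.55 to 11.1 CPM at 6M and 4.74 to 7.86 CPM in control, highest in 3M replicate 3, and their part in the Cd8a and Prf1 values was not tested.

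**Figure D4:**
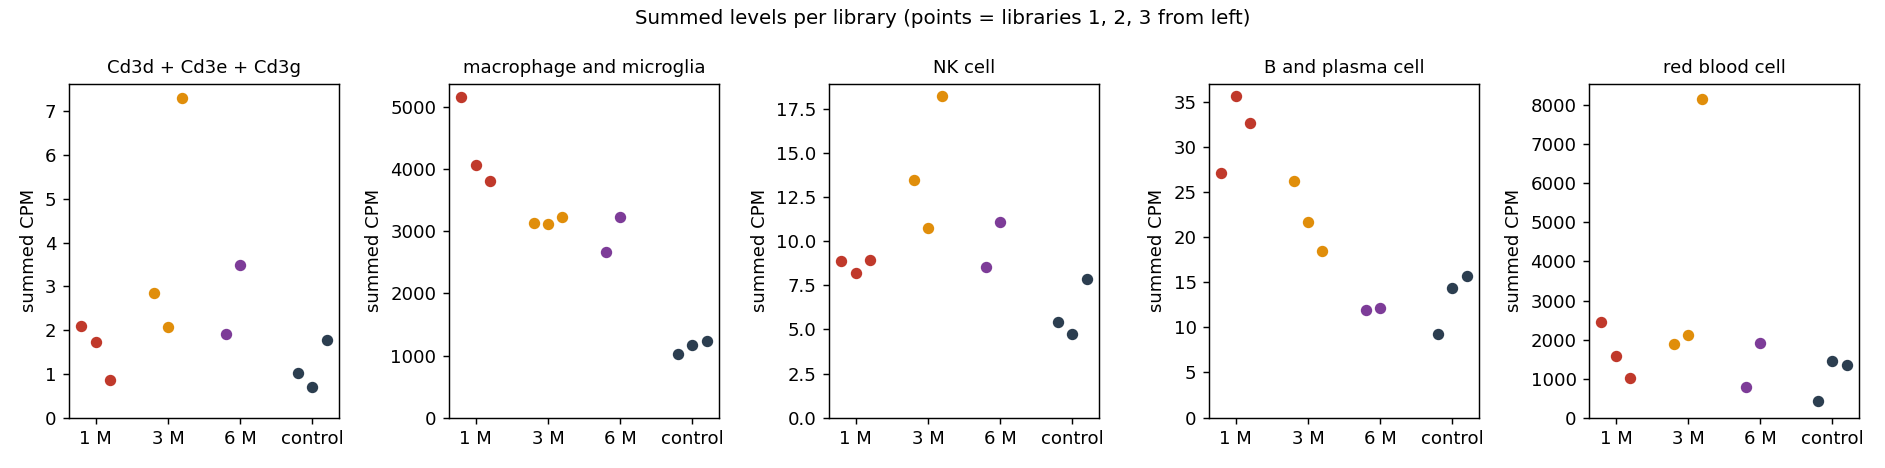
Summed CPM (y axes, linear, each with its own range) of the 3 CD3 genes and of 4 lists of marker genes in each library of 1M, 3M, 6M and control (x axes). The CD3 sum, the NK cell sum and the red blood cell sum are highest in 3M replicate 3, at 7.30, 18.2 and 8168 CPM, and the macrophage and microglia sum is highest at 1M.

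Of 12 B and plasma cell genes found in the data, 4 were tested, of which Cd22, a lectin receptor of B cells, rose at all 3 times, with 21.0 ± 4.97 CPM at 1M, 12.3 ± 5.66 CPM at 3M, 6.35 ± 0.53 CPM at 6M and 1.51 ± 0.59 CPM in control. Cd79a and Cd79b, the signalling chains of the B cell receptor, fell at 6M by 2.19 ± 0.80 and 2.95 ± 0.91 on the log2 scale (edgeR adjusted p = 0.0383 and 0.0193). The FPKM of Cd79a passed 1 only at 1M (at most 1.29 FPKM). Fcrla fell at 3M and 6M (-0.63 ± 0.20 and -0.75 ± 0.23), and both calls were lost with scaling by total counts (edgeR adjusted p = 0.105 and 0.0683). Thus 1 of the 4 rose at each time (25.5%, 29.7% and 26.8% of all tested genes). At 3M 1 fell and at 6M 3 fell (31.4% and 27.2%).

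Among transcription factors and receptors of T cell subsets, 8 of 20 genes in the tables were tested. Of these, 2 rose and 1 fell at 1M (25.5% and 31.5% of all tested genes). At 3M 4 rose and 2 fell (29.7% and 31.4%), and at 6M 4 rose and 1 fell (26.8% and 27.2%). Those that fell, named after their values were seen, were Itgae, an integrin chain of tissue-resident T cells, at all 3 times (-0.60 ± 0.16, -0.62 ± 0.16 and -0.48 ± 0.18), and S1pr1, a receptor for exit from lymphoid tissue that endothelium also carries, at 3M (-0.32 ± 0.09). The falls of Csk, Grap2, Itgae and S1pr1 are small. Scaling by total counts moved the median of all genes to 0.22 at 3M and 6M. The values of these 4 genes under that scaling are not reported here, so whether their calls hold under it is not shown. Il2ra, the alpha chain of the interleukin-2 receptor, had log2 fold changes of -0.26 ± 0.25, 1.56 ± 0.23 and 1.69 ± 0.25 at 1M, 3M and 6M. It rose at 3M relative to 1M by 1.82 ± 0.21 (edgeR adjusted p = 0.00242) and at 6M relative to 1M by 1.95 ± 0.23 (adjusted p = 0.00148). Tcf7, a factor of naive and memory T cells, rose at 3M (1.21 ± 0.30) and 6M (1.01 ± 0.32), and Lef1 rose at all 3 times by 0.64 to 0.79.

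Inhibitory receptors were tested for 3 of 9 genes. Havcr2, Cd244 and Lag3 all rose at 1M, with log2 fold changes of 1.41 ± 0.14, 1.53 ± 0.25 and 1.34 ± 0.45, and Havcr2 and Cd244 also rose at 3M and 6M. Pdcd1, which encodes PD-1, had 0 counts in every library, and Ctla4, Tigit, Btla, Cd96 and Cd160 never passed 1 FPKM.

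Of 12 tested genes of MHC presentation and of the CD2 and CD4 ligands, 6 rose at 1M (25.5% of all tested genes). At 3M 7 rose (29.7%) and at 6M 7 rose (26.8%). Cd48, the ligand of CD2, averaged 115 ± 5.20 CPM at 1M, 128 ± 3.20 CPM at 3M, 155 ± 36.1 CPM at 6M and 56.9 ± 16.3 CPM in control. Il16, a cytokine ligand of CD4, had log2 fold changes of 0.94 ± 0.15, 1.26 ± 0.15 and 1.62 ± 0.16 at 1M, 3M and 6M. B2m, the light chain of MHC class I, and Tap1, the peptide transporter that loads it, had values from 1.00 to 1.16 and from 1.17 to 1.41.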

How the data were processed

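Counts and FPKM of 11 libraries were analysed. The authors mapped paired-end reads of poly-A libraries with TopHat2 2.1.0, using Rnor6. The deposited counts are raw HTSeq-count values per gene, made with a version and strandedness not given in the sources used here. The deposited FPKM values came from Cufflinks 2.2.1, and the authors raised any value under 0.1 to 0.1, where 41.8% of them stand. A value at 0.1 can be a failed estimate, since Mbp is listed at 0.1 in a control library. The submitters' processing notes also name CASAVA 1.7. In 1M replicate 1 the total exceeds the number of read pairs, so both mates may have been counted, which could not be checked.

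Testing covered the 14867 genes over 1 FPKM in any library and used edgeR 4.0.16 in R 4.3.3, with TMM scaling and the quasi-likelihood test, all 11 libraries in 1 model of the 4 groups. Benjamini-Hochberg adjustment of p-values ran across all tested genes. SE was derived from the F statistic, as |log2 fold change| over its square root. Each replicate is a pool of 3 rats, and no pair of libraries agreed within sampling noise. Where all controls had 0 counts, a fold is a lower bound set against 3 counts over that group. The single-value ratio test was run in Python 3.11.15 with scipy 1.17.1. The methods were tested on simulated data. Every column of values was mapped to a sample.

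The members and the gene lists were chosen with earlier results of these data known. The 10 members were all named, and from each other list the 4 genes with the smallest adjusted p against control and any gene that was untested or at 0 counts could be named, with the 5 genes most like Cd8a, the CD3 sum and Cd4, and the cell type markers. Alternatives were 3 other scalings, DESeq2 1.42.0, limma 3.58.1 on log2(FPKM + 1) or log2(FPKM + 0.1), no filter, filterByExpr, 2-group fits, a replicate block, 1 batch per group, the counts of 1M replicate 1 divided by 2, a stricter threshold and leaving out each library. The unfiltered fit without each library was added after the data had been seen. Some genes covered by this rule are not reported here.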

Additional observations from a re-analysis of the deposited data

How the results depend on the processing

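The rises of Cd8a, Cd8b and Cd4 against control passed the threshold under every alternative run at each of the 3 times. Leaving out 1 library gave 3 to 3 members that rose at 1M, 4 to 7 at 3M and 3 to 4 at 6M, 0 to 2 that rose at 3M relative to 1M, and 0 to 2 that fell at 6M relative to 1M. The number that rose at 3M relative to 1M, 1 in edgeR, was 2 with the DESeq2 Wald test, 2 with no filter, 2 with filterByExpr, and 0 with limma on log2(FPKM + 0.1), with 1 batch per group and at an adjusted p under 0.01 with a fold over 2. The number that fell at 6M relative to 1M was 1 in place of 2 with limma on log2(FPKM + 0.1), with the replicate block and at that stricter threshold. At 6M relative to 3M, 1 fell with the DESeq2 Wald test. The causes were not tested.

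The replicate numbers do not pair the libraries, since same-numbered libraries deviated from their group means with correlations from -0.53 to 0.40. With the number as a block, Cd8a at 6M relative to 1M had -1.49 (edgeR adjusted p = 0.0582), Cd3d at 1M 0.021 and Cd3g at 6M relative to 3M 0.045, the last 2 with the other sign.

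Other values with the other sign were all of uncalled genes. Against control at 1M, Cd3d had 0.069 with total counts, 0.0035 with no filter, 0.47 with 1 batch per group and -0.83 to 0.26 with 1 library left out (0.11, 0.10 and 0.26 without control replicate 2, control replicate 3 and 1M replicate 3). At 1M Lck had 0.11 with total counts, 0.019 with the upper quartile, 0.077 with limma on log2(FPKM + 1), 0.17 on log2(FPKM + 0.1), 0.028 with no filter and 0.031 without 1M replicate 2 (-0.18 to 0.031 with 1 library left out), and Cd79b had 0.13 with total counts. At 1M Cd3g had -0.11 without control replicate 2 and at most 1.23. At 6M relative to 3M, Cd3e had -0.99 to 0.11 and Cd3g -0.98 to 0.32 with 1 library left out (the highest without 3M replicate 3), and Cd4 had -0.0013 with limma on log2(FPKM + 1), -0.0021 on log2(FPKM + 0.1) and -0.18 to 0.34 with 1 library left out (the lowest without 6M replicate 2). Cd4 at 6M relative to 1M had -0.45 to 0.064 with 1 library left out (the highest without 6M replicate 1). In the unfiltered fit Prf1 had -0.28 at 1M and -0.050 at 6M without control replicate 2, and -0.19 at 6M relative to 1M without 6M replicate 2.

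Scaling by total counts moved the median of all genes against control to 0.16, 0.22 and 0.22 at 1M, 3M and 6M. The Cd8a to Cd4 difference was 1.07 with 0.1 CPM added (exact permutation p = 0.0606), -0.017 with 1 CPM, -0.35 in FPKM and 0.0865 to 0.624 without 1 library. Depth limits Cd8b, the CD3 chains, Cd2, Cd5 and Prf1, which had 0 to 18 counts per control library.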
